A study of Mus musculus with 12 samples.

Results

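The Ms4a genes described here are 8 neighbouring members of the membrane-spanning 4-domains family (Ms4a4a, Ms4a4b, Ms4a4c, Ms4a4d, Ms4a6b, Ms4a6c, Ms4a6d and Ms4a7), out of 18194 mouse genes named by at least 1 probe set of the array. They were followed in whole pancreas, where chronic pancreatitis was induced with cerulein, a cholecystokinin-like peptide that overstimulates the enzyme-secreting acinar cells. Members were taken as probe sets annotated to exactly 1 of these symbols, and each gene was read from the probe set with the highest mean over all 12 arrays. The members were selected on their log2 signals in cerulein and saline pancreas, known from earlier results of these data, so their differences between cerulein and saline are given as a description, and calls of the fit on them are counted but support nothing. Of the 8 genes, 7 had a probe set (14 probe sets in all) and Ms4a4a had none with its symbol. Ms4a4b, Ms4a4c, Ms4a4d, Ms4a6b, Ms4a6c, Ms4a6d and Ms4a7 therefore carry values, and 6 of them, all but Ms4a4c, exceeded a log2 signal of 4 on at least 3 of 12 arrays, the minimum for entering the statistical fit, as did 8505 genes in the whole series.

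The 4 groups were C57BL6/J mice (Jackson, called J below) given cerulein, C57BL6/NHsd mice (Harlan, called NHsd) given cerulein, J mice given saline and NHsd mice given saline. Each group held 3 mice of 8 weeks with 1 array per mouse. The labels give the saline mice as female and give no sex for the cerulein mice. Signals are the deposited log2 values, in which the lowest value was 2.39 and the highest 16.4, and 1 unit is a doubling. Acinar genes, such as those of digestive proteases and amylase, marked every array as pancreas, with group means over 9 listed genes of 12.4 in J cerulein, 12.7 in NHsd cerulein, 12.9 in J saline and 12.9 in NHsd saline pancreas. Control transcripts added during sample preparation and hybridization also differed by treatment. The hybridization controls averaged 5.10 ± 0.16 on cerulein arrays and 6.92 ± 0.43 on saline arrays (SD, n = 6 each, exact two-sided permutation p = 0.00216), and the poly-A controls averaged 7.11 ± 0.58 on cerulein arrays and 9.83 ± 0.44 on saline arrays (SD, n = 6 each, exact p = 0.00216, the smallest that 6 against 6 can give). The median gene lay 0.49 higher after cerulein, so treatment and array handling cannot be told apart in the absolute size of a cerulein difference.

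Ms4a proteins are small membrane proteins that cross the membrane several times, and some of them sit in complexes with immune receptors at the surface of blood cells. The best known relatives are Ms4a1, the B cell antigen CD20, and Ms4a2, the beta chain of the high-affinity IgE receptor of mast cells. Ms4a4a and Ms4a7 are known from macrophages, where MS4A4A associates with the fungal receptor Dectin-1 (Clec7a), and Ms4a4b is known from mouse T cells, where it modulates T cell activation. Human variants in the MS4A cluster are associated with Alzheimer's disease and with the level of soluble TREM2, a receptor of macrophages and microglia.

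All 8 members lie together on mouse chromosome 19, within 283.8 kb between 11321039 and 11604804 (RefSeq, GRCm38.p6), inside a cluster of 21 Ms4a genes that covers 678.6 kb. From the lowest coordinate upwards their order is Ms4a7, Ms4a4a, Ms4a4c, Ms4a4b, Ms4a6c, Ms4a6b, Ms4a4d and Ms4a6d, and no other Ms4a gene lies among them. RefSeq sequence before the transcription start was at hand for 7 of the 8 members, and Ms4a6d was not matched. The 250 bases before the start are printed for 2 pairs of neighbouring paralogs whose upstream sequences resembled each other most: Ms4a6b (chr19:11518309-11518558, + strand) with Ms4a6c (chr19:11469118-11469367, + strand), and Ms4a4b (chr19:11443308-11443557, + strand) with Ms4a4c (chr19:11407411-11407660, + strand, which lies inside the RefSeq gene range). The Ms4a6c window runs past 11469353, where the RefSeq range of that gene begins, so its last bases lie inside the range. Capitals mark the longest run of bases the pair shares.
Ms4a6b: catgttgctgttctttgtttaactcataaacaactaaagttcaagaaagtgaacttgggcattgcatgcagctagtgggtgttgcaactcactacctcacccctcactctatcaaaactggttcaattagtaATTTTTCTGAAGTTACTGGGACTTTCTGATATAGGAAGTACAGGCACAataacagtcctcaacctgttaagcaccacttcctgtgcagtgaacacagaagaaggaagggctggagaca
Ms4a6c: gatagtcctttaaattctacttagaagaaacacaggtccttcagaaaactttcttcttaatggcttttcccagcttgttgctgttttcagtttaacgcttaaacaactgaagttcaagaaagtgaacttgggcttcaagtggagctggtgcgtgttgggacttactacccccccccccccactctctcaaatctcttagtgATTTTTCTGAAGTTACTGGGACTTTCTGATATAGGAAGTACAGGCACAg
Ms4a4b: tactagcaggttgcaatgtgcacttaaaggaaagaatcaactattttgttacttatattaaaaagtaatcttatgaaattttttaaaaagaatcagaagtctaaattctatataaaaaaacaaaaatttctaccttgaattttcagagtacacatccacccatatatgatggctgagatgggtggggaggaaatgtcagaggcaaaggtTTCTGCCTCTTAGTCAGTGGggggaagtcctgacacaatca
Ms4a4c: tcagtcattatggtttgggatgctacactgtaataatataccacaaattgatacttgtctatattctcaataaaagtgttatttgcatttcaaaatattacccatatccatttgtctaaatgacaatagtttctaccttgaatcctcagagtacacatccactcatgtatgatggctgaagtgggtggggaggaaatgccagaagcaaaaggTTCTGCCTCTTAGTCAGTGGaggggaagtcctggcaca
Local alignment of Ms4a6b with Ms4a6c covered 182 columns with 83.5% identity and a longest shared run of 48 bases. For Ms4a4b and Ms4a4c it covered 128 columns with 89.1% identity and a longest shared run of 20 bases. The next most similar pair of member windows aligned over 30 columns. The letters GGAAGT, the core bound by ETS family factors, occurred on either strand in 6 of 8 member windows (Ms4a7 has 2 windows) and in 19.7% of all 32851 mouse windows of the same length. In Ms4a6b and Ms4a6c one GGAAGT stood inside the shared run, and in Ms4a4b and Ms4a4c it followed the shared run by a few bases. The longer PU.1 form GAGGAAGT, which contains GGAAGT, was in 0 of 8 member windows and in 2.4% of all windows. The interferon response form, GAAA repeated after 2 free bases, was in 0 of 8 and 3.0%, and the C/EBP form TTGCNNAA was in 1 of 8 (Ms4a4d) and 9.6%, all counted on both strands.

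Ms4a7, a macrophage-associated member, had the largest signal difference of the members. It measured 8.42, 7.96 and 7.53 in J cerulein, 7.29, 7.26 and 7.95 in NHsd cerulein, 3.14, 3.11 and 2.93 in J saline and 2.93, 2.73 and 2.66 in NHsd saline pancreas. Every cerulein array stood more than 4 log2 units above every saline array, and the cerulein arrays of the 2 substrains overlapped. All saline arrays lay under log2 4, so the fold is a lower bound, at least 15.7-fold higher in J cerulein (mean 7.97 against 3.06 in J saline) and at least 11.3-fold higher in NHsd cerulein (mean 7.50 against 2.77 in NHsd saline). These bounds set the cerulein mean against log2 4, as do those below, and with the arrays shifted to equal medians they were 12.5 in J and 9.44 in NHsd. The fitted log2 difference over both substrains, which uses the dim saline values as they are, was 4.82 ± 0.17 (SE, n = 6 each). Its second probe set stayed at or under 2.62 on every array.

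Ms4a6b, a paralog known from immune cells of the mouse, was the only member of the Ms4a6 subgroup with saline arrays above log2 4. It measured 8.25, 8.13 and 7.54 in J cerulein, 6.84, 7.01 and 7.17 in NHsd cerulein, 4.55, 4.11 and 3.76 in J saline and 4.39, 3.73 and 3.81 in NHsd saline pancreas. The lowest J cerulein array stood above the highest NHsd cerulein array, while the saline groups overlapped. The log2 difference between cerulein and saline was 3.84 ± 0.25 in J and 3.03 ± 0.25 in NHsd (SE, n = 3 each). A second, dimmer probe set for Ms4a6b gave 4.28, 4.82 and 4.79 in J cerulein, 2.94, 3.71 and 4.28 in NHsd cerulein, and 2.52 to 2.76 in both saline groups. On that probe set the groups had the same order after cerulein; the lowest J and the highest NHsd array both read 4.28.

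Ms4a6c, its neighbour in the cluster, was seen above log2 4 on cerulein arrays and not on saline arrays. It measured 6.03, 6.10 and 5.60 in J cerulein, 5.07, 5.10 and 5.12 in NHsd cerulein, 3.20, 2.72 and 2.50 in J saline and 3.24, 3.07 and 3.03 in NHsd saline pancreas. The J cerulein arrays all lay above the NHsd cerulein arrays, which were close to each other. The fold was at least 3.75 in J cerulein over J saline and at least 2.14 in NHsd cerulein over NHsd saline. The fitted log2 differences, which use the dim saline values as they are, were 3.10 ± 0.19 in J and 1.98 ± 0.19 in NHsd (SE, n = 3 each). The other Ms4a6c probe set read 2.40 to 2.49 throughout.

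Ms4a6d, known from mouse macrophages, where it forms a complex with the receptor Vsig4, also lay under log2 4 on all saline arrays. It measured 7.67, 6.95 and 6.45 in J cerulein, 6.03, 6.16 and 6.14 in NHsd cerulein, 3.83, 3.76 and 3.73 in J saline and 3.41, 2.53 and 3.26 in NHsd saline pancreas. No neighbouring groups overlapped, and the J cerulein arrays spread over more than 1 log2 unit. The fold was at least 8.13 in J cerulein over J saline and at least 4.32 in NHsd cerulein over NHsd saline, and the fitted log2 differences were 3.25 ± 0.28 in J and 3.04 ± 0.28 in NHsd (SE, n = 3 each). With the arrays shifted to equal medians the NHsd bound was 3.61, the J bound no longer held because the J saline arrays did not all lie under log2 4, and the fitted difference in J was 2.67. This probe set carries the suffix that marks probes shared by several transcripts. A second Ms4a6d probe set measured 6.64, 5.61 and 5.28 in J cerulein, 4.83, 5.36 and 4.95 in NHsd cerulein, 2.86, 2.50 and 2.54 in J saline and 3.54, 2.89 and 3.26 in NHsd saline pancreas. The probe sets shared the direction after cerulein but disagreed in saline, where the brighter one was higher in J and the dimmer one higher in NHsd. A further Ms4a6d probe set stayed at 2.39 on all 12 arrays.

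**Figure D1:**
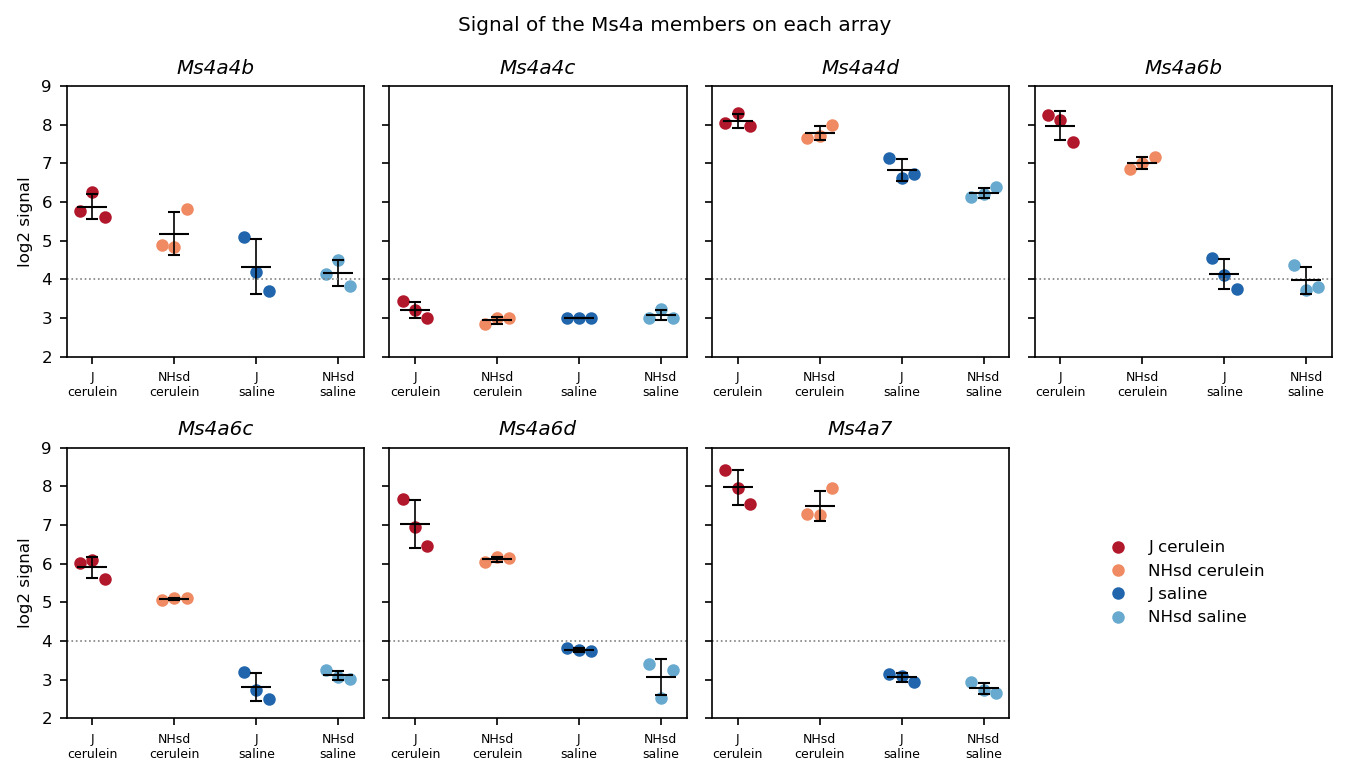
Log2 signal of the chosen probe set of each Ms4a member on each of the 12 arrays, with groups from left to right J cerulein, NHsd cerulein, J saline and NHsd saline; points are single mice, horizontal bars group means, whiskers the SD and the dotted line log2 4. Ms4a7, Ms4a6b, Ms4a6c, Ms4a6d and Ms4a4d separate cerulein from saline on every array, Ms4a4b overlaps and Ms4a4c stays between 2.84 and 3.43.

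The Ms4a4 genes stood closer between treatments than the Ms4a6 genes and Ms4a7. Ms4a4d, which had a single probe set with a clear signal in saline pancreas as well, measured 8.03, 8.30 and 7.97 in J cerulein, 7.65, 7.71 and 7.99 in NHsd cerulein, 7.15, 6.62 and 6.71 in J saline and 6.13, 6.21 and 6.38 in NHsd saline pancreas. Cerulein and saline arrays did not overlap, nor did the saline arrays of the 2 substrains. The log2 difference was 1.28 ± 0.17 in J and 1.54 ± 0.17 in NHsd (SE, n = 3 each).

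Ms4a4b, the member known from T cells, measured 5.78, 6.25 and 5.62 in J cerulein, 4.89, 4.84 and 5.82 in NHsd cerulein, 5.10, 4.20 and 3.69 in J saline and 4.15, 4.51 and 3.83 in NHsd saline pancreas. The highest saline array stood above 2 of the cerulein arrays, and each group overlapped its neighbour in level. The log2 difference was 1.55 ± 0.35 in J and 1.02 ± 0.35 in NHsd (SE, n = 3 each), and the NHsd value was 0.43 with the arrays shifted to equal medians and 0.70 without NHsd cerulein replicate 3. A second Ms4a4b probe set read at most 2.49.

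Ms4a4c, the neighbour that shares upstream sequence with Ms4a4b, did not pass the minimum. Its chosen probe set measured 3.43, 3.20 and 3.00 in J cerulein, 2.84, 3.00 and 3.00 in NHsd cerulein, 3.00 on each J saline array and 3.00, 3.23 and 3.00 in NHsd saline pancreas, and all groups overlapped. Its other probe set measured 4.45, 3.69 and 3.63 in J cerulein, 2.44, 2.70 and 2.89 in NHsd cerulein, 2.41, 2.40 and 2.41 in J saline and 2.42, 2.41 and 2.42 in NHsd saline pancreas. On that probe set only J cerulein replicate 1 exceeded log2 4, so the groups' order there rests on dim values. Both Ms4a4c probe sets carry suffixes that mark probes shared by several transcripts.

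Among the members in the fit, the order of group means was J cerulein, NHsd cerulein, J saline, NHsd saline from high to low for Ms4a4b, Ms4a4d, Ms4a6b, Ms4a6d and Ms4a7, and for Ms4a6c the last 2 were exchanged. Every cerulein array exceeded every saline array for 5 of the 6 (Ms4a4d, Ms4a6b, Ms4a6c, Ms4a6d and Ms4a7), while 40.0% of all 8505 genes did so. The fit's threshold of 0.05 on the adjusted p was passed by all 6 in the higher direction over both substrains, beside 59.4% of all genes, in NHsd beside 48.7% and in J beside 47.8%, and Ms4a4b missed it in NHsd under 6 alternative settings. Nothing is read from these counts, because the response chose the members and Ms4a6c, Ms4a6d and Ms4a7 passed the minimum through cerulein arrays alone. The background itself depends on scaling: of the genes called over both substrains 85.5% were higher as deposited and 42.4% with the arrays shifted to equal medians. Under that shift the members' log2 differences over both substrains were 4.24 for Ms4a7, 2.85 for Ms4a6b, 2.56 for Ms4a6d, 1.96 for Ms4a6c, 0.83 for Ms4a4d and 0.70 for Ms4a4b, all still positive.

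**Figure D2:**
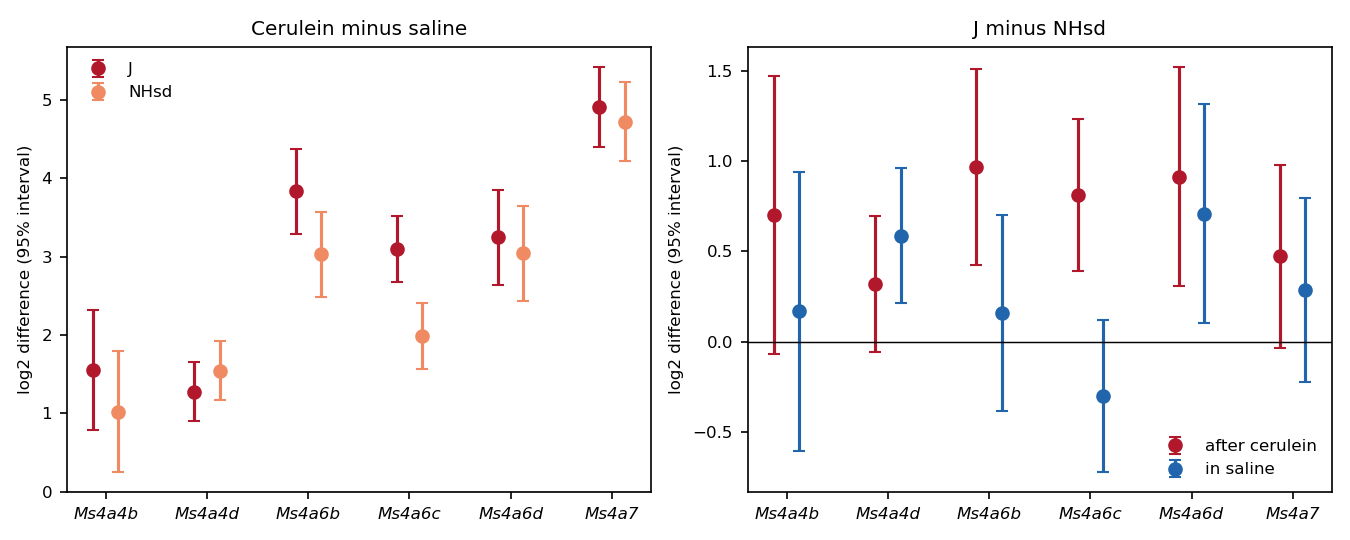
Log2 differences with 95% confidence intervals for the 6 Ms4a members in the fit, for cerulein minus saline in each substrain and for J minus NHsd after cerulein and in saline. The cerulein differences run from 1.02 for Ms4a4b in NHsd to 4.91 for Ms4a7 in J, and the substrain differences from -0.30 for Ms4a6c in saline to 0.97 for Ms4a6b after cerulein.

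The second question of the design was whether the substrains differed. After cerulein all 6 members in the fit averaged higher in J than in NHsd, by 0.32 to 0.97 on the log2 scale, and none was called by limma's moderated test with Benjamini-Hochberg adjustment over all genes. Ms4a6c differed by 0.81 (SE 0.19, 95% interval 0.39 to 1.23, unadjusted p = 0.00117, limma adjusted p = 0.176), Ms4a6b by 0.97 (SE 0.25, interval 0.42 to 1.51, limma adjusted p = 0.226) and Ms4a6d by 0.91 (SE 0.28, interval 0.31 to 1.52, limma adjusted p = 0.316). For these 3 Ms4a6 paralogs each J cerulein array exceeded each NHsd cerulein array, which held for 7.94% of all genes, and 0.223% of all genes were called in either direction. The J cerulein array of replicate 1 carried the highest Ms4a6b, Ms4a6d and Ms4a7 values, and without it the differences were 0.83 for Ms4a6b, 0.75 for Ms4a6c, 0.59 for Ms4a6d and 0.25 for Ms4a7 (0.47 with it). Ms4a4b (0.70, interval -0.07 to 1.47), Ms4a7 (0.47, interval -0.04 to 0.98) and Ms4a4d (0.32, interval -0.06 to 0.69) had intervals that include 0.

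In saline pancreas none of the 6 members was called between J and NHsd either, beside 0.0588% of all genes. Ms4a4d was higher in J by 0.59 (SE 0.17, 95% interval 0.21 to 0.96, limma adjusted p = 0.487). Each J saline array exceeded each NHsd saline array for Ms4a4d, Ms4a6d and Ms4a7, as for 8.41% of all genes, but all saline values of Ms4a6d and Ms4a7 lay under log2 4, and the mean of the Ms4a6d probe sets gave 0.055 in place of 0.71. Ms4a6b differed by 0.16 and Ms4a4b by 0.17, and leaving out J saline replicate 1 turned both negative. Ms4a6c differed by -0.30, with all its saline values under log2 4.

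The difference between the cerulein responses of J and NHsd, tested as an interaction, was called for none of the 6 members, beside 0.0118% of all genes. On the chosen probe sets it was largest for Ms4a6c, at 1.11 (SE 0.27, 95% interval 0.52 to 1.71, unadjusted p = 0.00147, limma adjusted p = 0.627), a value that rests in part on saline signals under log2 4. For Ms4a6b it was 0.81 (interval 0.04 to 1.57, limma adjusted p = 0.702). For Ms4a4b, Ms4a6d and Ms4a7 it was 0.53, 0.20 and 0.19, and for Ms4a4d it was -0.27, with intervals that include 0. The Ms4a6d value depends on the probe set, and the mean of its 2 probe sets above the minimum gave 0.80 (limma adjusted p = 0.708). The median SE of this contrast over all genes was 0.29, against 0.20 for a difference between 2 groups.

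The other Ms4a genes were dim in pancreas. Of the 10 with a probe set, Ms4a1 alone passed the minimum. It measured 3.35, 3.72 and 3.37 in J cerulein, 4.01, 4.40 and 5.34 in NHsd cerulein, 3.37, 2.85 and 2.68 in J saline and 3.67, 3.10 and 3.11 in NHsd saline pancreas. This CD20 gene passed through the NHsd cerulein arrays alone. Nothing is therefore read from its difference after cerulein, -1.10 for J minus NHsd on the log2 scale (limma adjusted p = 0.258), not called. Its second probe set did not pass and overlapped after cerulein, at 2.76, 3.21 and 2.72 in J and 2.78, 3.92 and 4.31 in NHsd. Ms4a2, Ms4a3, Ms4a15, Ms4a18, Ms4a19 and Ms4a20 stayed at or near 2.39, Ms4a8a read 2.89 to 3.32, and Ms4a13 and Ms4a10 did not exceed 3.74 and 2.70.

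**Figure D3:**
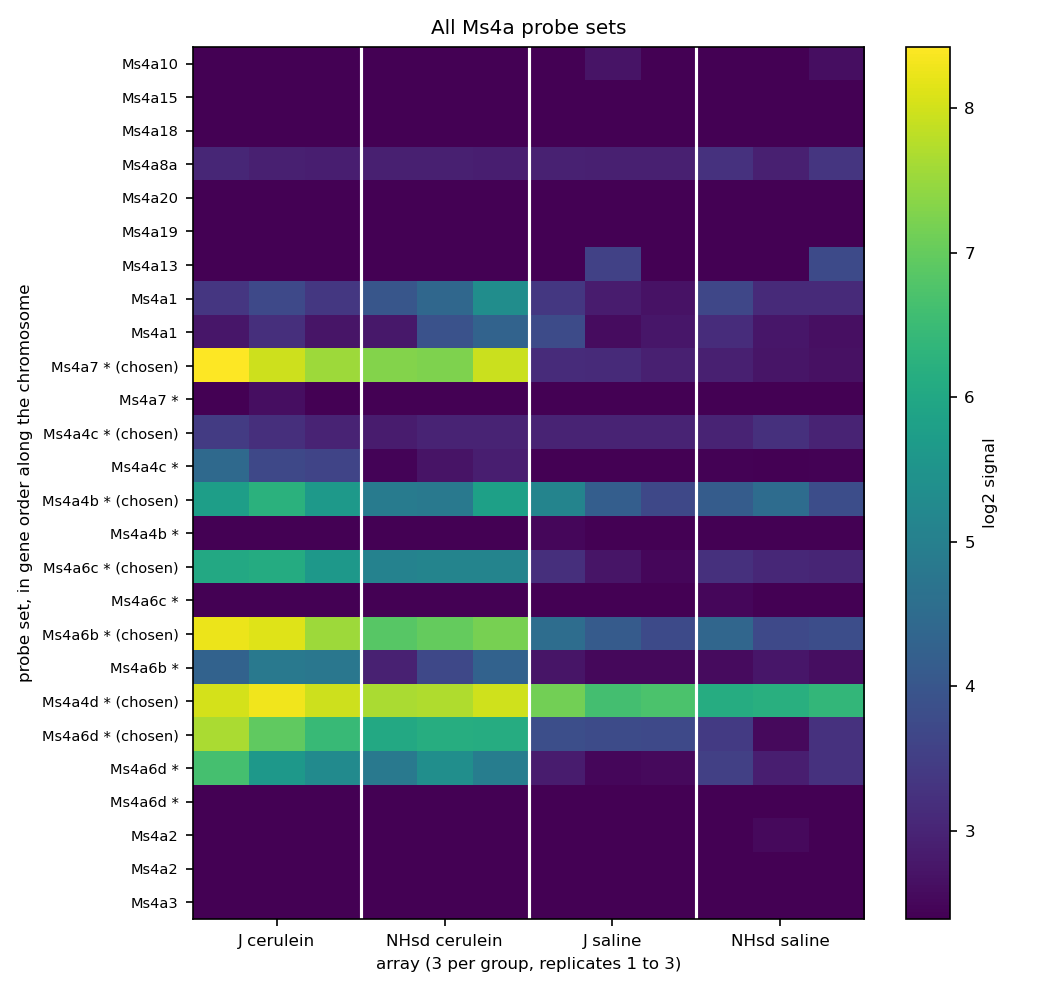
Log2 signal (colour scale) of every Ms4a probe set, in gene order along the chromosome from top to bottom, on each of the 12 arrays, with groups from left to right J cerulein, NHsd cerulein, J saline and NHsd saline. Asterisks mark the members and "chosen" the probe set that stands for the gene; Ms4a7 reaches 8.42 in J cerulein pancreas, while its second probe set and those of Ms4a3 and Ms4a15 stay dark.

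Marker lists of immune cells were set beside the members because these genes are known from blood cells. The macrophage list (21 genes) averaged 7.08 to 7.60 in J cerulein, 6.92 to 7.10 in NHsd cerulein, 4.45 to 4.82 in J saline and 4.41 to 4.80 in NHsd saline pancreas. Its 18 genes in the fit were all called higher after cerulein over both substrains, beside 59.4% of all genes. Their median difference was 3.12 against 0.49 for all genes. Nothing is read from this count, because the list was chosen with earlier results known. Genes such as Adgre1, Cd68 and Cd14 also passed the minimum through cerulein arrays alone. Msr1 and Itgam lay under log2 4 on all arrays, and Cx3cr1 did not pass the minimum. The macrophage genes Adgre1 and Cd68 averaged 6.47 and 6.34 in J cerulein, 6.15 and 6.04 in NHsd cerulein, 3.02 and 2.92 in J saline and 3.08 and 2.89 in NHsd saline pancreas. Between substrains after cerulein 0 of the 18 were called, beside 0.223% of all genes. The median for J minus NHsd was 0.31 against 0.05 for all genes, and the highest macrophage mean was on J cerulein replicate 2. In whole tissue, more cells of a type and more RNA per cell cannot be told apart, and the part of macrophage content in the Ms4a values was not tested.

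The T and NK cell list read 2.57 to 2.78 in J cerulein, 2.59 to 2.64 in NHsd cerulein, 2.73 to 2.87 in J saline and 2.76 to 2.82 in NHsd saline pancreas. Of its 15 genes with a probe set, 13 lay under log2 4 on every array, including Cd3d, Cd3e, Cd3g, Cd4 and Cd8a. Zap70, a kinase of the T cell receptor, was the only gene of this list in the fit. It averaged 3.43 in J cerulein, 3.35 in NHsd cerulein, 4.50 in J saline and 4.67 in NHsd saline pancreas. Zap70 passed the minimum through saline arrays alone, so nothing is read from its fall of 1.20 on the log2 scale after cerulein over both substrains. The part of T cell content in the Ms4a4b values was not tested. The monocyte list averaged 5.16 to 5.74 in J cerulein, 5.22 to 5.36 in NHsd cerulein, 3.88 to 4.09 in J saline and 3.85 to 4.19 in NHsd saline pancreas. Mast cell and dendritic cell genes were mostly under log2 4 on all arrays (9 of 10 and 7 of 8 genes), as were 4 of 8 neutrophil genes.

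**Figure D4:**
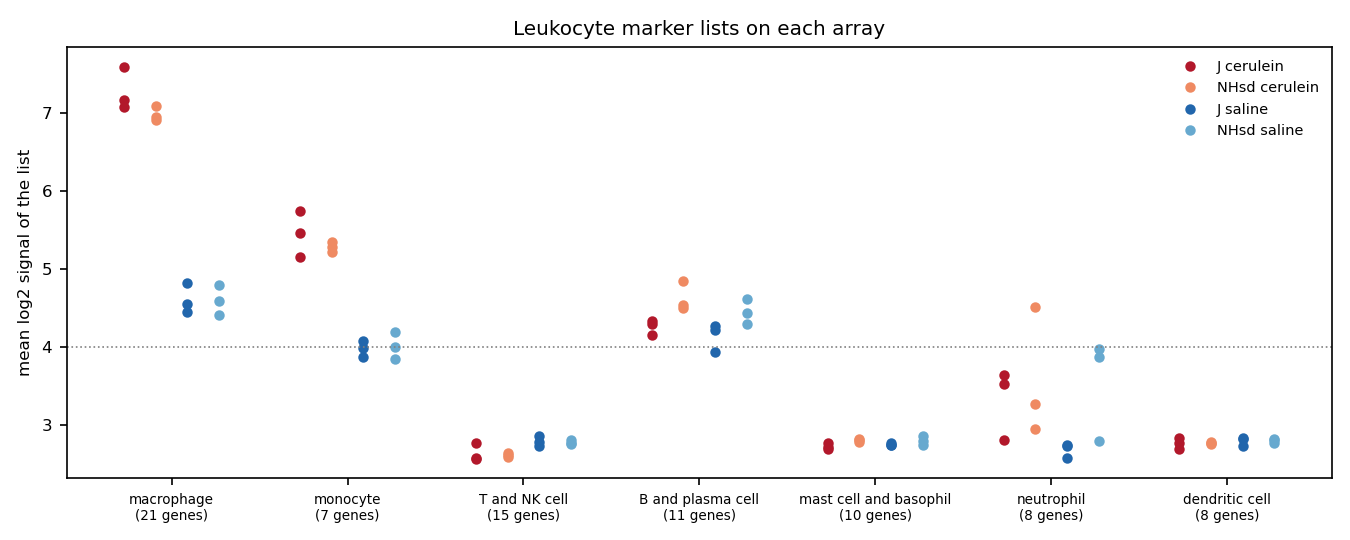
Mean log2 signal of each leukocyte marker list on each array (points are single mice, the dotted line is log2 4), with groups from left to right J cerulein, NHsd cerulein, J saline and NHsd saline. The macrophage list lies between 6.92 and 7.60 on cerulein arrays and between 4.41 and 4.82 on saline arrays, while the T and NK cell list does not exceed 2.87 in all groups.

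A further list held genes linked to MS4A proteins or to Trem2 or Dectin-1 signalling, among them Cd9, Apoe and Lpl. It shared Tyrobp with the macrophage list. All 10 of its genes in the fit were called higher after cerulein over both substrains, beside 59.4% of all genes. In NHsd 9 were called (beside 48.7%) and in J 8 (beside 47.8%). Nothing is read from these counts, because the list was chosen with earlier results known and Trem2 passed the minimum through cerulein arrays alone. None was called between the substrains, beside 0.223% of all genes after cerulein and 0.0588% in saline. With the arrays shifted to equal medians the share of all genes called higher over both substrains was 26.6%. The genes of this list were not recounted at that scaling, so their count stands beside 59.4% only. Fyn (0.44) and Plcg2 (0.49) differed by about the median of all genes, 0.49. For Inpp5d, a phosphatase of inositol lipids, the probe set in the fit gave 0.94, while a brighter one that did not pass the minimum averaged 3.08 in J cerulein, 3.10 in NHsd cerulein, 3.77 in J saline and 4.02 in NHsd saline pancreas, the opposite direction. Clec7a (Dectin-1) averaged 7.04 in J cerulein, 6.84 in NHsd cerulein, 4.67 in J saline and 4.63 in NHsd saline pancreas. Trem2 averaged 4.53 in J cerulein, 3.76 in NHsd cerulein, 2.51 in J saline and 2.53 in NHsd saline pancreas, and Tyrobp, the adaptor that pairs with Trem2, averaged 8.77, 7.97, 4.33 and 4.45 in the same group order. The partner list had a median log2 difference of 1.90 against 0.49 for all genes.

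Genes with the most similar course were found by the root mean square difference of log2 signals over the 12 arrays, each gene centred on its own mean. For Ms4a6b the nearest were Ly86 (0.150) and C1qb (0.232), both expressed by macrophages, against a median of 1.55 over all genes. For Ms4a7 they were Birc5 (0.200) and Mcm6 (0.395), genes of dividing cells, and for Ms4a6d Cks2 (0.316) and Cks1b (0.325), which bind cyclin-dependent kinases. Ms4a6c was nearest to Ckb (0.186) and Exosc8 (0.218), Ms4a4d to Exosc9 (0.159) and Mtpn (0.163), and Ms4a4b to Fam111a (0.247) and Ncoa7 (0.251). Within the family Ms4a6b and Ms4a6d were closest (0.34), with 3 genes of the array nearer to Ms4a6d than Ms4a6b, and Ms4a4b and Ms4a7 were farthest apart (1.81). The measure weighs the size of the treatment difference most, so genes with the same size of change stand near each other.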

How the data were processed

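Whole pancreas RNA of 12 mice was hybridized to 45101 probe sets, 1 array per mouse. The deposited values are log2 signals, made by the authors with GCRMA and Partek per the submitters' processing notes (no versions); whether all arrays were normalized in one run is not given in the sources used here. Of the probe sets, 34958 carry 1 gene symbol, 932 several and 9211 none; only the first kind was used. Genes above log2 4 on at least 3 of 12 arrays, each read from its brightest probe set that passed, were fitted with limma 3.58.1 (R 4.3.3; 1 mean per group, intensity trend) and adjusted by Benjamini-Hochberg over 8505 genes. The fit was tested on data simulated with independent noise and no treatment or array handling difference. Nothing about these arrays is read from that test. Members and gene lists were chosen with earlier results of these data known. Named genes are all Ms4a genes with a probe set, 2 nearest genes per fitted member, and listed markers. Promoter sequences are RefSeq's (GRCm38.p6). Alternatives were scaling, filters, moderation, probe set choice, samples fitted, replicate number as a block, a 2-fold threshold and leaving out each array. The number of arrays limits precision. The labels call the samples biological replicates.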

Additional observations from a re-analysis of the deposited data

How the results depend on the processing

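Over 22 alternative settings, 757 of 768 member differences kept their direction and their side of the threshold, 6 lost the call and 5 changed sign. The settings for moderation, samples fitted, block and 2-fold threshold left the log2 differences as they were, so direction could not change there. The same holds where the array left out was not in the groups compared. The number of members called stayed within 1.5 times in every setting. With single arrays left out it was 5 to 6 in NHsd, 6 in J and over both substrains, and 0 in each substrain comparison. With the minimum at log2 6 there were 4 members in the fit, all 4 called after cerulein. As deposited, 59.4% of all genes were called higher over both substrains, 48.7% in NHsd and 47.8% in J. Between the substrains 0.223% were called after cerulein and 0.0588% in saline. These shares were not counted with single arrays left out, the log2 6 minimum or the block. Nothing is read from the cerulein counts, because the response chose the members. The 6 lost calls were all Ms4a4b in NHsd: 0.47 with quantile normalization, 0.43 with equal medians, 1.02 with no minimum, 0.70 without NHsd cerulein replicate 3, 1.01 without NHsd saline replicate 1 and 0.85 without NHsd saline replicate 3; the cause was not tested. Sign changes came from leaving out single arrays. With single arrays left out, the difference between responses ranged from -0.12 to 0.49 for Ms4a6d (0.80 with the mean of its probe sets) and from -0.040 to 0.41 for Ms4a7, negative without J cerulein replicate 1. J minus NHsd in saline ranged from -0.22 to 0.49 for Ms4a4b (-0.0012 without NHsd saline replicate 3) and from -0.044 to 0.36 for Ms4a6b, negative without J saline replicate 1. Of genes called over both substrains, 5049 were higher and 855 lower as deposited, against 2384 and 2905 with quantile normalization and 2262 and 3072 with equal medians; the median gene moved to -0.06 and -0.10. In NHsd 4139 were higher and 561 lower as deposited, against 1721 and 2453 with equal medians, and in J 4069 and 647 as deposited, against 1777 and 2497. With equal medians the lower bounds of the fold were 12.5 in J and 9.44 in NHsd for Ms4a7, 3.00 in J and 1.79 in NHsd for Ms4a6c, and 3.61 in NHsd for Ms4a6d, with none in J. Same-numbered arrays did not deviate together (18 pairs, r from -0.161 to 0.334, 3 over 0.1), so the numbers were not used as pairs; with the replicate number as a block the counts of members called were 6, 6 and 6 after cerulein and 0 in each substrain comparison.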

Other observations

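The 11 listed B cell and plasma cell genes with a probe set averaged 4.16 to 4.34 in J cerulein and 4.50 to 4.85 in NHsd cerulein pancreas, and 3.95 to 4.28 in J saline and 4.30 to 4.61 in NHsd saline pancreas. Jchain, the joining chain of secreted IgA and IgM, averaged 8.56 ± 0.32 in J cerulein and 10.43 ± 0.57 in NHsd cerulein pancreas, and 7.33 ± 1.29 in J saline and 9.49 ± 0.38 in NHsd saline pancreas (SD, n = 3 each). Its difference was -1.87 after cerulein (limma adjusted p = 0.242) and -2.16 in saline (limma adjusted p = 0.341), and neither was called. None of the 4 listed genes in the fit was called between the substrains, beside 0.223% of all genes after cerulein and 0.0588% in saline. Of the 11 genes, 7 lay under log2 4 on all arrays. Xbp1, the brightest of the list, averaged 11.8 in J cerulein, 11.9 in NHsd cerulein, 12.5 in J saline and 12.3 in NHsd saline pancreas. It raises the list averages in every group. Xbp1 fell by 0.57 after cerulein over both substrains, while the other listed genes in the fit, Jchain, Ms4a1 and Mzb1, differed by 1.08, 0.90 and 0.48. Which cells of the whole pancreas gave the Xbp1 signal was not tested. In saline, Xbp1 was higher in J than in NHsd by 0.16 on the log2 scale.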
